A study of Mus musculus with 6 samples.

Results

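The Ces2 carboxylesterases are a family of serine hydrolases encoded by neighbouring genes, and their rows were taken from a deposited table of raw read counts of mouse colon. A row was a member when its reference gene name, split at commas, began with Ces2 followed by a letter. This found 4 of the 2033 rows of the table, Ces2a, Ces2b, Ces2e and Ces2g. The table compares colon tissue of 3 libraries from mice that received PFOA (perfluorooctanoic acid, a fluorinated surfactant) over a long term, with colon tissue of 3 control libraries. Strain, genotype, sex, age, dose, length of exposure and part of the colon are not stated in the sources used here. The labels speak of 6 frozen mice in each group and do not tie them to libraries. P-values therefore measure the spread between libraries, which may be technical in part. Listed counts per library ranged from 1771120 to 2269892 and are sums over the listed rows only, so that sequencing depth is unknown.

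Carboxylesterases of this family sit in the lumen of the endoplasmic reticulum and split ester, thioester and amide bonds. In the intestinal epithelium they are known for first-pass hydrolysis of ester drugs and prodrugs, and several mouse members also hydrolyse acylglycerols, the storage and dietary form of fatty acids. In the mouse the family was expanded by tandem duplication, so its members lie side by side on 1 chromosome and resemble each other in sequence.

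The cluster lies on chromosome 8 of the mm10 build, and all members are on the plus strand. Ces2a spans 104734003 to 104741634, Ces2b 104831572 to 104840093, Ces2e 104926260 to 104934672 and Ces2g 104961718 to 104969537. GENCODE M21, whose starts for these 4 genes equal those of the table, annotates 8 Ces2 genes over 287 kb. The read counts of Ces2c, the pseudogene Ces2d-ps, Ces2f and Ces2h were not analysed here. RefSeq promoters (GRCm38.p6, 250 bases before to 50 after the start) were found for 3 of the 4 members. They are shown because Ces2a and Ces2e were higher and Ces2g was lower in PFOA, so that the start regions of genes that moved in opposite directions can be compared. Capitals mark, from left to right, a run of 9 bases that these members share with Ces2f and the longest run shared by all 3 members, which has 11 bases. The windows are chr8:104733753-104734052, chr8:104926010-104926309 and chr8:104961468-104961767, all on the plus strand.
Ces2a: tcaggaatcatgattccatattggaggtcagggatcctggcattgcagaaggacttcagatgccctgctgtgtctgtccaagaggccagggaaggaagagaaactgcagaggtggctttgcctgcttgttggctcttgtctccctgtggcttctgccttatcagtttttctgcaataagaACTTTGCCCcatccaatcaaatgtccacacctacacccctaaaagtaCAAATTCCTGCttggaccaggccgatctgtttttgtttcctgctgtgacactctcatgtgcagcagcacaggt
Ces2e: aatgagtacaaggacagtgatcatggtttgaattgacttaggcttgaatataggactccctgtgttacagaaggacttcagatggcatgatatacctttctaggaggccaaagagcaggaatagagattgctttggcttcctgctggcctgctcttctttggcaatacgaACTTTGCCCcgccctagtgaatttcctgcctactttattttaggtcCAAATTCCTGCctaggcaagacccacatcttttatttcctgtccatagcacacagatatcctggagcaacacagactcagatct
Ces2g: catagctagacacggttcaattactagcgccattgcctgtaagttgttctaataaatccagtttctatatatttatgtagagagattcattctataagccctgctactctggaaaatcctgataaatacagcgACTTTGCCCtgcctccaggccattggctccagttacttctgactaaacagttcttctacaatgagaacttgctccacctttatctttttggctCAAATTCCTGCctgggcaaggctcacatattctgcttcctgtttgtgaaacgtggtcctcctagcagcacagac

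The 9-base run ACTTTGCCC began 70 bases before the start in Ces2a, 80 in Ces2e and 117 in Ces2g. Searched on both strands, it occurred in 86 of 32851 promoter entries (0.262%) and in 4 of the 6 Ces2 promoters at hand, the fourth being Ces2f, where it began 92 bases before the start. The run CAAATTCCTGC began 23 bases before the start in Ces2a, 34 in Ces2e and 24 in Ces2g, and it occurred in 8 of the 32851 entries (0.0244%). Both runs were picked because Ces2a, Ces2e and Ces2g share them. Their presence in the higher members Ces2a and Ces2e and in the lower member Ces2g was therefore fixed by that choice. The entries counted for each run include these members. No Ces2 promoter window held the perfect direct repeat bound by PPAR and RXR (DR1, in 0.0396% of entries), CAAAGTNCA, an HNF4-type element (1.41%), or TGACNNNGC, the core of the antioxidant response element (12.4%). The shared run ACTTTGCCC reads GGGCAAAGT on the other strand, so it holds CAAAGT, the opening letters of the HNF4-type pattern, without the exact match. All patterns were searched on both strands and may overlap one another, and a missing exact match describes this window only.

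In coding sequence the members were 81.6% to 86.6% identical to each other over about the whole reading frame. Ces2b and Ces2g were the closest pair of members and Ces2a and Ces2g the most distant. Ces2b was closer, at 92.1%, to Ces2c, whose counts were not analysed here. Reads of such copies can be counted for one another, and how the authors treated reads with several matches is not stated in the labels. Of all distinct 100-base words in the GENCODE transcripts of a member, 0% recurred in another Ces2 gene for each of Ces2a, Ces2b, Ces2e and Ces2g. For Ces2a, 8.13% of these words recurred in another gene, Gm7208, and for Ces2b 0.0881% did. With words of 50 bases, between 1.84% (Ces2a) and 4.43% (Ces2b) recurred in another Ces2 gene, and 17.3% of those of Ces2a, 9.42% of those of Ces2b, 3.30% of those of Ces2e and 3.07% of those of Ces2g recurred in any other gene. A read of 100 bases that matches the reference exactly could therefore be placed on 1 Ces2 member. The read length is not stated either.

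Ces2a, Ces2b and Ces2e were higher and Ces2g was lower in the PFOA libraries. Ces2a and Ces2e, both annotated in the deposited table as pyrethroid hydrolases, rose about equally, by 4.05-fold and 4.26-fold. Ces2b rose by 3.97-fold from a much lower level. Ces2g, annotated there as an acylcarnitine hydrolase, was 3.09-fold lower in PFOA. Values are ratios of mean CPM, the counts scaled to a common library total with TMM factors (trimmed mean of M values) computed on the listed rows, with 3 libraries per group. In bulk tissue a change in the number of expressing cells and a change in RNA per cell cannot be told apart.

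The listed rows already differ between the groups, so these calls are read against the table. All 1608 rows with enough counts for the test passed it (100% called, 50.0% higher and 50.0% lower in PFOA), and 98.0% had CPM values that did not overlap between the groups (48.3% higher and 49.7% lower). All 4 members were among the tested rows. Their changes were of middling size within the table. The median log2 fold change was 1.71 over the 804 higher rows and -1.80 over the 804 lower rows, and 291 higher rows rose at least as far as Ces2e, the member that rose most. Of the lower rows, 467 fell at least as far as Ces2g.

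Ces2a had 1226, 1421 and 1287 counts in control replicates 1, 2 and 3 and 7418, 3696 and 3966 in PFOA replicates 1, 2 and 3. The groups did not overlap, and PFOA replicate 1 lay well above the other PFOA libraries. The log2 fold change was 2.02 ± 0.35 (SE, n = 3 per group; edgeR quasi-likelihood test with Benjamini-Hochberg adjustment, adjusted p = 0.00152).

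Ces2e had 7475, 4591 and 4940 counts in PFOA against 912, 1689 and 1602 in control. Control replicate 1 was the lowest of the control libraries and PFOA replicate 1 the highest of the PFOA libraries, and the groups did not overlap. The log2 fold change was 2.09 ± 0.35 (SE, n = 3 per group; edgeR adjusted p = 0.00125).

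Ces2b is a family member that the deposited table leaves without a functional annotation. It had 620, 486 and 560 counts in PFOA against 100, 125 and 216 in control. Control replicate 3 was the highest control library, and the PFOA libraries still lay at more than double its count. The log2 fold change was 1.99 ± 0.32 (SE, n = 3 per group; edgeR adjusted p = 0.00114).

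Ces2g had 182, 107 and 114 counts in PFOA against 475, 394 and 439 in control. The control libraries lay close together, and the groups did not overlap. Although Ces2g fell, its highest PFOA value was again in replicate 1. The log2 fold change was -1.63 ± 0.31 (SE, n = 3 per group; edgeR adjusted p = 0.00212).

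**Figure D1:**
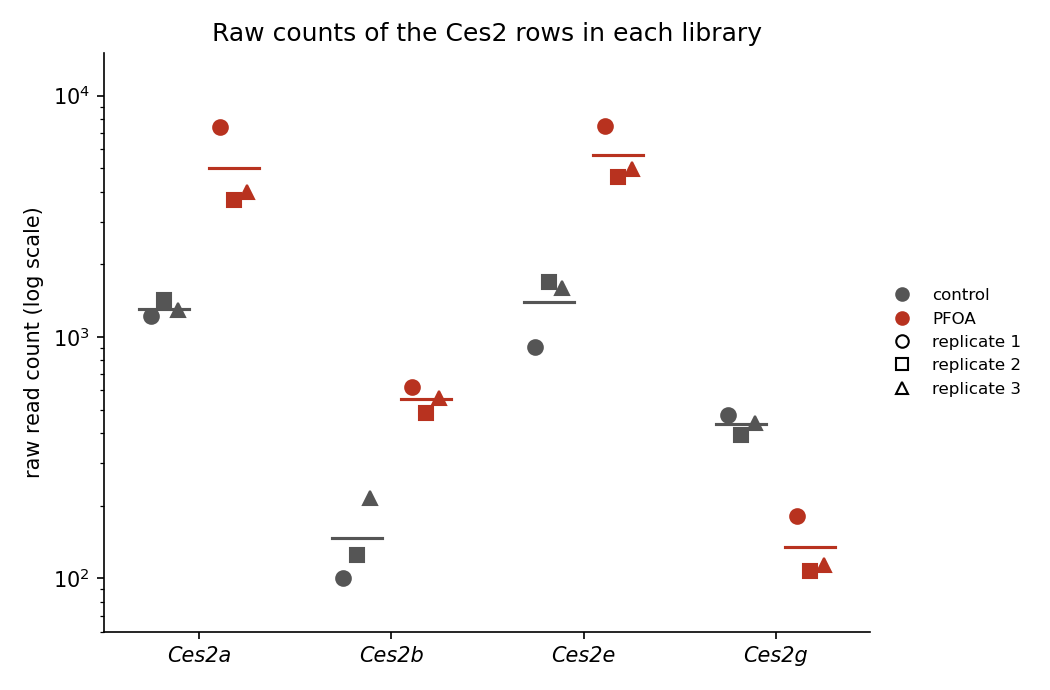
Raw read counts (log scale) of the 4 Ces2 rows in each library, with control in grey, PFOA in red, symbols for replicates and horizontal lines for group means. Ces2a, Ces2b and Ces2e were higher in each PFOA library than in any control library, Ces2g was lower, and PFOA replicate 1 (circle) was the highest PFOA library for each of the 4 genes.

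PFOA replicate 1 had the highest CPM of its group for all 4 members. This library also stood apart over all tested rows. Its log2 CPM correlated at 0.953 and 0.951 with PFOA replicates 2 and 3, which correlated at 0.983 with each other. Control replicate 1 correlated at 0.959 and 0.972 with control replicates 2 and 3, against 0.984 between those. Without PFOA replicate 1 the log2 fold change was 1.49 for Ces2a, 1.79 for Ces2b, 1.72 for Ces2e and -2.03 for Ces2g. The direction and the edgeR call stood for each (adjusted p = 3.86e-04, 0.00167, 0.00116 and 2.89e-04). Without this library 1663 of 1711 tested rows (97.2%) were called, so a call that stands is not particular to Ces2. Counts summed over the 4 listed members came to 2713, 3629 and 3544 in the control libraries. In the PFOA libraries they came to 15695, 8880 and 9580. This sum leaves out the Ces2 genes that were not analysed, so it is not the level of the whole family. It does not depend on how reads were divided among the 4 members, but reads exchanged with other genes could still change it. Its log2 fold change was 1.86 ± 0.33 (SE, n = 3 per group, edgeR adjusted p = 0.00151). All 1605 rows tested in that fit were called.

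Divided by the length of the row, which equals the total GENCODE exon length for all 4 genes, the members formed a high and a low pair. In control, levels were 264 ± 23.9 CPM per kilobase for Ces2a and 246 ± 72.0 for Ces2e (SD, n = 3), which overlapped. Ces2g followed at 57.9 ± 6.05 and Ces2b at 20.3 ± 7.54 CPM per kilobase (SD, n = 3), which did not overlap with each other. In PFOA, Ces2a stood at 1069 ± 534 and Ces2e at 1046 ± 380 CPM per kilobase (SD, n = 3), again overlapping. There Ces2b, at 80.4 ± 15.5, lay above Ces2g, at 18.8 ± 7.41 CPM per kilobase (SD, n = 3). The order of the low pair was therefore opposite in the groups, while that of the high pair was not resolved in either.

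As a share of the Ces2 counts per kilobase of a library, Ces2g made up 13.0%, 8.02% and 9.27% in control replicates 1, 2 and 3 and 0.828%, 0.870% and 0.860% in the PFOA replicates. The PFOA shares lay within a narrow range although the summed Ces2 level differed between these libraries. Ces2e made up 33.1%, 45.5% and 44.8% in control and 45.1%, 49.4% and 49.4% in PFOA. Ces2a ranged from 41.2% to 51.0% in control and from 45.3% to 51.2% in PFOA, and Ces2b from 2.67% to 4.78% and from 2.96% to 4.43%, so these shares overlapped between the groups.

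**Figure D2:**
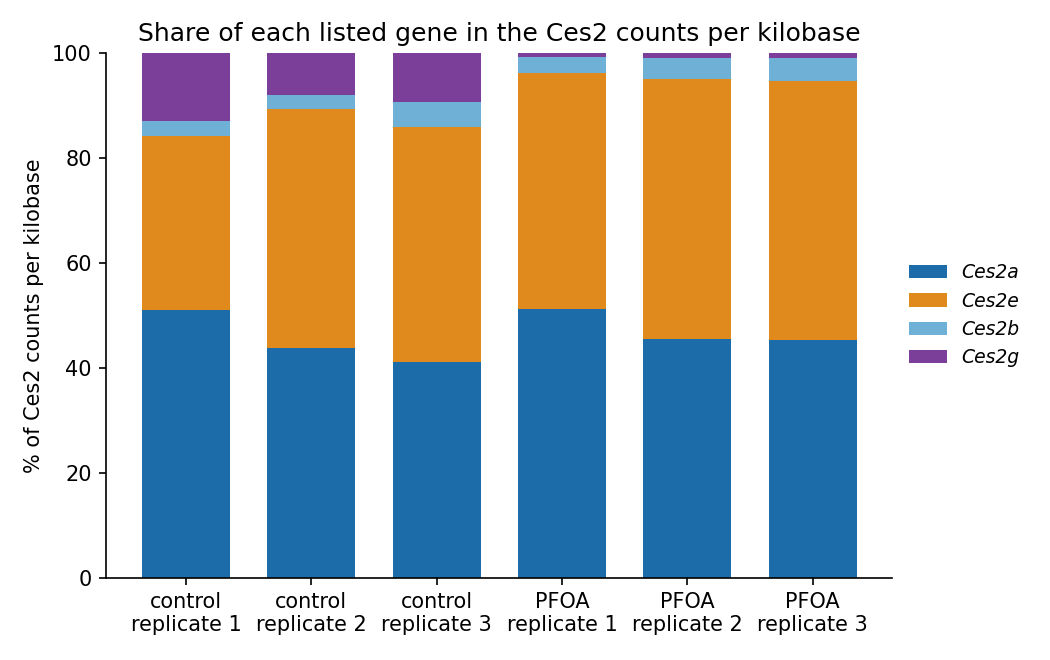
Share of each listed Ces2 gene in the summed Ces2 counts per kilobase of a library, as stacked bars that add up to 100%. Ces2a and Ces2e together fill most of each bar, and the Ces2g segment at the top shrinks from 8.02% to 13.0% in the control libraries to 0.828% to 0.870% in the PFOA libraries.

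Ratios between members within a library need no scaling between libraries. The ratios among Ces2a, Ces2b and Ces2e overlapped between the groups. The ratio of Ces2a to Ces2e counts was 1.34, 0.841 and 0.803 in control and 0.992, 0.805 and 0.803 in PFOA. On the log2 scale (pseudocount 0.5) it differed by -0.17 ± 0.26 between PFOA and control (SE, n = 3 per group; exact two-sided permutation p = 0.6, adjusted 0.9 over 6 pairs). The ratio of Ces2a to Ces2b differed by -0.12 ± 0.41 and that of Ces2b to Ces2e by -0.05 ± 0.29 (log2, SE, n = 3 per group; exact permutation p = 0.9 for both, adjusted 0.9). The Ces2a to Ces2b count ratio ranged from 5.96 to 12.3 within control alone. These errors leave room for unequal rises of the 3 genes, and with 3 libraries a group the test could not have shown a difference.

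The ratios to Ces2g separated the groups. Ces2e counts were 1.92, 4.29 and 3.65 times those of Ces2g in control and 41.1, 42.9 and 43.3 times in PFOA. The PFOA libraries lay close together here, replicate 1 included, and the control libraries were more spread. The ratio rose by 3.77 ± 0.35 on the log2 scale (SE, n = 3 per group; exact permutation p = 0.1, adjusted 0.2 over 6 pairs). Ces2a counts were 2.58, 3.61 and 2.93 times those of Ces2g in control and 40.8, 34.5 and 34.8 times in PFOA. Ces2b had fewer counts than Ces2g in control, at ratios of 0.211, 0.317 and 0.492, and more in PFOA, at 3.41, 4.54 and 4.91. The smallest p that 3 against 3 libraries allow is 0.1, so no pair could pass the 0.05 threshold. Since Ces2g was lower and the others higher in each PFOA library than in any control library, the separation of its ratios follows from these directions.

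**Figure D3:**
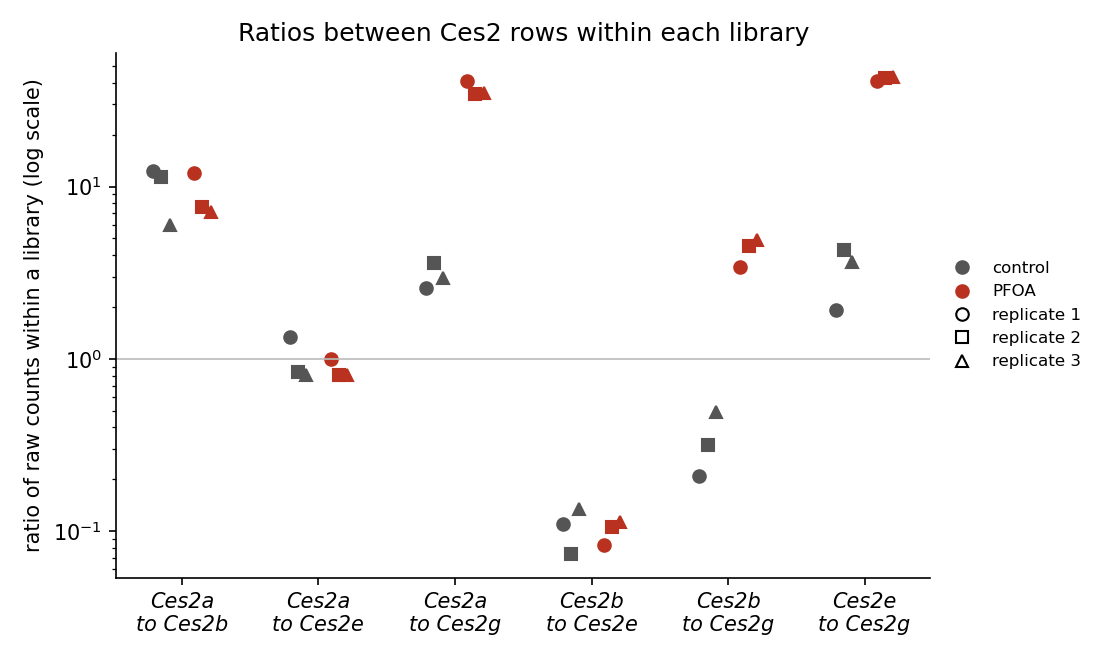
Ratio of the raw counts of 2 Ces2 rows within each library (log scale) for all 6 pairs, with control in grey, PFOA in red and symbols for replicates. The 3 pairs among Ces2a, Ces2b and Ces2e overlap between the groups, while the 3 pairs with Ces2g do not, and Ces2b to Ces2g crosses 1.

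Along the chromosome the risen members came first and the fallen one last. Taking the Ces2a start as 0, Ces2b starts at 97.6 kb, Ces2e at 192 kb and Ces2g at 228 kb. Beyond the family, 9 listed rows lay within 1 Mb of the cluster, of which 6 were tested, with 3 higher and 3 lower in PFOA. Pdp2, which encodes a pyruvate dehydrogenase phosphatase and lies before Ces2a, was 3.93-fold lower in PFOA, at 377, 288 and 273 counts against 1027, 1365 and 1469. Gm5159, a transcribed pseudogene on the minus strand that starts before Ces2a and shares 50-base words with Ces2e and Ces2g, had 62, 19 and 10 counts in PFOA against 13, 2 and 4 in control. Downstream, the carboxylesterase genes Ces3a and Ces3b were too low to be tested. Ces3a had 1, 0 and 1 counts in PFOA against 6, 16 and 3 in control. Ces3b had 4, 44 and 4 control counts and was without a count in PFOA, so that most of its reads came from control replicate 2. Rows of both directions thus lay in the neighbourhood of the cluster.

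**Figure D4:**
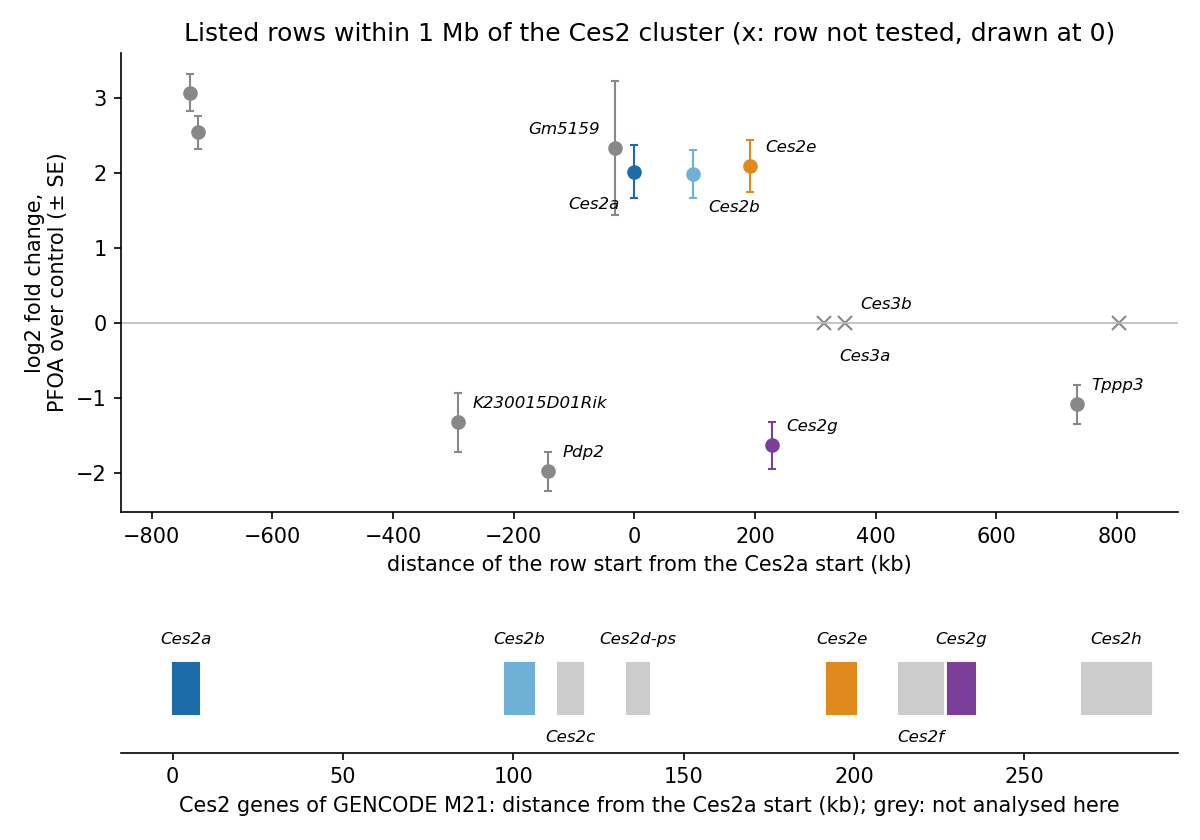
Top, log2 fold change (PFOA over control, ± SE) of the listed rows within 1 Mb of the Ces2 cluster against the distance of their start from the Ces2a start, with untested rows as crosses at 0 and unnamed assembled loci unlabelled. Bottom, the 8 Ces2 genes of GENCODE M21 to scale, which shows Ces2g at 228 kb as the last listed member, with Ces2c, Ces2d-ps, Ces2f and Ces2h in grey.

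Of 12 other carboxylesterase genes, 8 had a row and 4 were tested. These 4 were all Ces1 genes and higher in PFOA (median log2 fold change 3.19). Over the whole table, 50.0% of tested rows were higher in PFOA. Ces1g and Ces1f, which hydrolyse esters in liver and gut, had larger folds than any Ces2 row, with log2 fold changes of 6.35 ± 0.42 and 4.70 ± 0.36 (SE, n = 3 per group; edgeR adjusted p = 4.69e-05 and 7.54e-05). By mean CPM per kilobase, however, Ces2a and Ces2e were the most abundant carboxylesterase rows in PFOA. There Ces1d, a triglyceride hydrolase, reached 572, Ces1g 470 and Ces1f 367 CPM per kilobase on average. The lead of Ces2a over Ces1d did not hold in each library. Ces1d had 1934, 2418 and 4052 counts in PFOA replicates 1, 2 and 3, against 7418, 3696 and 3966 for Ces2a. In control only Ces1d, at 178 CPM per kilobase, was near the level of Ces2a and Ces2e. The 4 rows too low for the test, Ces1b, Ces1c, Ces3a and Ces3b, had at most 44 counts in a library and all had fewer in PFOA. Ces2g was the one tested carboxylesterase row that was lower in PFOA.

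**Figure D5:**
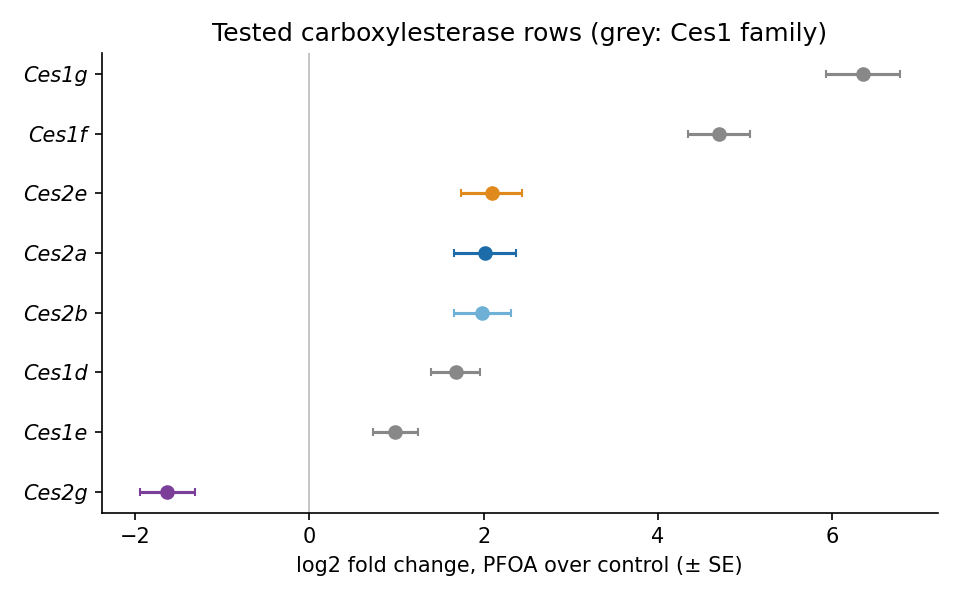
Log2 fold change (PFOA over control) with its standard error for the 8 tested carboxylesterase rows, Ces2 in colour and Ces1 in grey. Ces2a, Ces2b and Ces2e lie together near 2, between Ces1d at 1.68 and Ces1f at 4.70, and Ces2g alone lies below 0, at -1.63.

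Other hydrolases and lipid genes were drawn from fixed lists. Of 32 genes of acylglycerol synthesis, breakdown and transport, 7 had a row and 6 were tested, all higher in PFOA (median log2 fold change 2.53). Of all 1608 tested rows, 50.0% were higher in PFOA, and the genes without a row cannot be judged. Mgll, which splits monoacylglycerols, had 2335, 1898 and 1859 counts in PFOA against 837, 753 and 865 in control. Mogat2, which re-esterifies them in enterocytes, had 61, 25 and 27 counts in PFOA against 0, 4 and 3 in control. Lpin2, a phosphatidate phosphatase, had 12198, 4960 and 4555 counts in PFOA against 1362, 1778 and 1598 in control, with replicate 1 high as for Ces2a. Apob, the structural protein of chylomicrons, had 8328, 1821 and 1814 counts in PFOA against 392, 823 and 706 in control. Lpl, the lipoprotein lipase, had 418, 465 and 1390 counts in PFOA against 74, 74 and 47 in control, with replicate 3 high instead. Gpat3, a glycerol phosphate acyltransferase whose row is merged with Gm42987, had 309, 459 and 308 counts in PFOA against 65, 179 and 121 in control. The untested row, of the pancreatic lipase relative Pnliprp1, had 25, 5 and 2 control counts and was without a count in PFOA. Of 11 other ester and epoxide hydrolases 1 had a row, butyrylcholinesterase (Bche), which was 2.49-fold higher.

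Of 12 regulators of drug and lipid metabolism, 3 had a row. Ppara, the receptor for fatty acids and fibrates, had 7039, 10115 and 9728 counts in PFOA against 1708, 1643 and 1758 in control. Nr1h4, the bile acid receptor, had 9833, 12180 and 11033 counts in PFOA against 2738, 3398 and 4256 in control. For Ppara, PFOA replicate 1 was the lowest PFOA library in counts and in CPM. Nr1i3, the xenobiotic receptor CAR, had 62, 16 and 7 counts in PFOA against 182, 175 and 162 in control. Nr1i3 was thus lower in PFOA, with most of its PFOA counts in replicate 1. Whether any of them acts on a Ces2 gene was not tested.

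For each member, the 3 rows with the most similar profile were found by the root mean square distance between mean-centred log2 CPM values over the 6 libraries, among 988 tested rows with a single descriptive symbol. Closest to Ces2a were Zfp667, a zinc finger gene (0.14 log2 units), Btnl1, a butyrophilin-like gene of the gut epithelium (0.15), and Fam162a (0.16). Closest to Ces2e were Mettl7b, a methyltransferase-like gene (0.13), Vav3 (0.16) and again Btnl1 (0.16). Ces2b was nearest to Pparg, the nuclear receptor of adipocyte and epithelial differentiation (0.23), Pstpip2 (0.25) and Kcnip1 (0.26). Ces2g was nearest to S100a16, a calcium-binding protein (0.08), Ly6g6e, of the Ly6 surface protein family (0.09), and Abat, the GABA transaminase (0.13). Among the members themselves, Ces2e lay 0.27 from Ces2a and 0.29 from Ces2b, and Ces2a lay 0.41 from Ces2b. The distance from Ces2g was 1.80 to Ces2a, 1.89 to Ces2b and 1.91 to Ces2e. The median distance of all 988 rows from Ces2e was 1.66. These rows include those lower in PFOA, which lie far from Ces2e by direction alone. This median therefore does not show how close the risen members are compared with other higher rows.

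Markers of cell types that express carboxylesterases, or that a colon sample can hold, moved too. Of 12 small intestinal enterocyte markers 4 had a row, with Alpi, Sis and Slc10a2 higher and Rbp2 lower in PFOA. Alpi had 944, 1039 and 1506 counts in PFOA against 43, 87 and 59 in control. Sis had 40, 237 and 390 counts in PFOA against 4, 7 and 5 in control. The summed level of the 4 markers was 432 to 954 CPM in control and 1947 to 2723 in PFOA. Its part in the Ces2 result was not tested. Of 6 hepatocyte markers only Alb and Ttr had a row, and both were lower in PFOA (164 to 487 against 7.53 to 28.4 CPM summed). Alb had 0, 0 and 1 counts in the PFOA libraries against 38, 46 and 20 in control. Of 5 adipocyte markers 3 had a row. In PFOA replicates 1, 2 and 3, Adipoq had 54, 0 and 150 counts, Plin1 61, 0 and 128 and Cfd 225, 3 and 522. In control replicates 1, 2 and 3, Adipoq had 1, 3 and 0 counts, Plin1 4, 1 and 0 and Cfd 32, 25 and 3. The part of hepatocyte and adipocyte markers in the Ces2 result was not tested. The colon label was checked against 5 absorptive colonocyte markers. Car1, a colonic carbonic anhydrase, was present in all libraries (5727 to 17063 counts in control, 39638 to 125029 in PFOA), as were Slc26a3, the anion exchanger of the colon surface, and Car4, both lower in PFOA, and the summed level of these 3 was 28556 to 45533 CPM in control and 24730 to 79121 in PFOA. Krt20 and Aqp8 had no row. Of 5 goblet cell genes with a row, Muc2 was higher and Tff3, Clca1, Fcgbp and Zg16 were lower in PFOA. Of 5 enteroendocrine genes with a row, Nts and Sct were higher and Pyy, Gcg and Insl5 were lower in PFOA. Their sum was 2820 to 3277 CPM in control and 586 to 677 in PFOA. Insl5 had 4, 11 and 18 counts in PFOA against 959, 1761 and 1582 in control. Nts had 173, 399 and 265 counts in PFOA and 0 in each control library. Of 7 epithelial genes Cdx2 alone had a row and was higher. The part of these markers in the Ces2 result was not tested. All 4 rows of red blood cell genes were lower in PFOA (563 to 1487 against 123 to 212 CPM summed). They were Hba-a1, Hba-a2, Alas2 and a merged row of Hbb-bt and Hbb-bs. Over the whole table, 50.0% of tested rows were lower in PFOA. The lists of stem cell, pancreatic acinar, smooth muscle and leukocyte markers had 0 rows.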

How the data were processed

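Colon RNA of 3 control and 3 PFOA libraries was sequenced after a SMARTER mRNA-Seq preparation, per the labels' protocols. The authors deposited raw read counts per gene row without normalization, and per the submitters' processing notes HISAT2, HTSeq and mm10 were used. Versions, the strand setting, how reads with several matches were handled and how the listed rows were chosen are not stated in the sources used here. Columns were matched by sample description, and 0 other columns held values of single libraries. The row length in bases is also as the authors deposited it, among other annotation.

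The whole table was tested with edgeR 4.0.16 (R 4.3.3): filterByExpr, TMM factors, glmQLFit and glmQLFTest, two-sided, adjusted over 1608 tested rows at 0.05. SE is the absolute log2 fold change over the square root of F. CPM and fold changes are relative to the listed rows. Count ratios within a library were compared by an exact permutation test (SciPy 1.17.1). The fit was tested on simulated data. Coding sequences of the longest GENCODE M21 reading frame were aligned globally with Biopython 1.88. Libraries of a group were checked for duplicates, and none agreed within sampling noise (chi-square per degree of freedom at least 22.4). Alternatives were DESeq2 1.42.0, limma-voom (limma 3.58.1), other scalings and filters, the replicate number as a block and each library left out. The members and gene lists were chosen with earlier results of these data known. All Ces2 rows were named, with the 3 most similar rows of each, Ces rows within 1 Mb, and up to 6 listed genes of each list by smallest p. Pdp2, Gm5159, Pnliprp1 and the low Ces1 rows were named after their values were seen.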

Additional observations from a re-analysis of the deposited data

How the results depend on the processing

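All 4 Ces2 rows passed in the reported direction under each of the 15 alternatives to the edgeR fit, DESeq2 and limma-voom included. Over these, the log2 fold change ranged from 1.49 to 2.28 for Ces2a, 1.66 to 2.20 for Ces2b, 1.72 to 2.30 for Ces2e and -2.03 to -1.41 for Ces2g, with a largest adjusted p of 0.0101. Leaving out each library in turn, the count of called members was 4 in each case. The log2 fold change of the sum over the listed members then ranged from 1.44 to 2.10. With the replicate number as a block the log2 fold change of this sum was 1.79 (edgeR adjusted p = 0.00726) and no Ces2 call changed. Whether the replicate numbers pair the libraries is not stated in the labels. Deviations from the group means correlated at 0.11, -0.03 and 0.10 for the 3 same-numbered pairs and at -0.15 to 0.12 for the other pairs. With 3 libraries a group these values cannot decide it. The share of tested rows called ranged from 90.2% to 100% over the alternatives. Library totals in place of TMM moved the median log2 fold change of all tested rows from -0.03 to -0.25, which shifts the called values alike, and Ces2a to 1.78 and Ces2g to -1.87. Without each library in turn, the log2 difference of the ratio to Ces2g ranged from 3.49 to 3.73 for Ces2a, 3.42 to 4.03 for Ces2b and 3.42 to 4.0 for Ces2e. The differences among the risen members changed sign in some of these, from -0.45 to 0.073 for Ces2a to Ces2b, -0.30 to 0.069 for Ces2a to Ces2e and -0.29 to 0.14 for Ces2b to Ces2e. Paired by replicate number, the exact sign-flip p was 0.25 for each ratio to Ces2g, the smallest that 3 pairs allow. With the longest GENCODE transcript as length, chosen after seeing the data, Ces2a made up 51.9% and Ces2e 43.7% of the Ces2 counts per kilobase in PFOA, so the order of these genes depends on the length used. Ces2g was then at 11.3% in control and 0.971% in PFOA.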
